A study of Mus musculus with 391 samples.

Results

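The 10 genes described here encode transporters that brain endothelium is known for: the glucose carrier Slc2a1, the lipid carrier Mfsd2a, the amino acid exchanger chains Slc7a5 and Slc3a2, the taurine carrier Slc6a6, the organic anion carriers Slco1a4, Slco1c1 and Slco2b1, and the efflux pumps Abcb1a and Abcg2. They were taken by name from a table of 56941 genes. The table holds 391 cells of adult mouse brain, obtained by breaking the tissue down to vascular fragments and digesting these to single cells for Smart-seq2, a full-length RNA sequencing protocol without molecular identifiers. The labels put 111 cells in an endothelial class, for which the deposited cell table uses the code CP-EC without spelling it out, and 280 cells in a microglia class. All were brain cells of Mus musculus. The labels name no strain, sex, treatment or animal, so each class counts as 1 sample, and no test between the classes was made. The cells sat on 4 plates, told apart by their column names. Endothelial cells numbered 7 on plate A, 10 on plate B, 50 on plate C and 44 on plate D, and microglia 133 on plate A and 147 on plate B. Endothelial cells had a median of 174345 gene reads (83954 to 602175) and microglia 146506 (39876 to 504875).

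Levels are given as CPM, the reads of a gene divided by all gene reads of the cells concerned and scaled to 1000000, pooled over those cells unless a single cell is named. Parentheses after them hold exact 95% intervals, which cover counting error only and say nothing of other animals. The class names were checked against markers. All 12 endothelial markers, Pecam1, Cdh5 and Kdr among them, stood 4-fold or more above microglia in the endothelial class, with summed levels of 25372 CPM in endothelial cells and 297 CPM in microglia. All 14 microglia markers stood 4-fold or more above endothelial cells in the microglia class, with summed levels of 159 CPM in endothelial cells and 27751 CPM in microglia. Plvap, which forms the diaphragms of endothelial fenestrae and is lacking from mature barrier endothelium, reached 10 reads in 111 of 111 endothelial cells and in 0 of 280 microglia. Its level per endothelial cell ran from 212 over a median of 8443 to 18194 CPM. All 10 markers of border-associated macrophages, the macrophages along vessels and meninges, were also 4-fold or more above endothelial cells in the microglia class, with summed levels of 345 CPM in endothelial cells and 6691 CPM in microglia, so that the class also holds cells with these markers.

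Barrier endothelium is sealed by tight junctions, so that polar nutrients reach the brain through carriers in the endothelial membrane and many drugs are returned to the blood by pumps. Slc2a1 carries glucose, Slc7a5 paired with Slc3a2 carries large neutral amino acids, Mfsd2a carries lysophosphatidylcholine with omega-3 fatty acids, and Slco1c1 carries thyroxine. Endothelium of circumventricular organs and of the choroid plexus is fenestrated and is known for low levels of several of these carriers.

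The promoters of the members differ in base composition, and 5 are printed because they belong to the genes whose levels are set side by side later on: Slco1a4 and Abcb1a, which few endothelial cells carried at high level, Slco1c1, which no cell did, and Slc2a1 and Slc3a2, which were read in nearly all endothelial cells. Each is the 250 bases before the gene's start from RefSeq (build GRCm38.p6), read in the direction of the gene, with capitals marking CG dinucleotides. RefSeq windows were found for 8 of the 10 members; Slc7a5 and Slc6a6 were not among them.
Slco1a4 (chr6:141856221-141856470, minus strand): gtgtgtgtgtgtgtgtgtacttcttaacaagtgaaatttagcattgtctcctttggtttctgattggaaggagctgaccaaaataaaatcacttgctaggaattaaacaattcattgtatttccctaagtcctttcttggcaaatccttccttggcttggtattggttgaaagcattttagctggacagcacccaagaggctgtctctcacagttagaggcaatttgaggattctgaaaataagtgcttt
Abcb1a (chr5:8566841-8567090, plus strand): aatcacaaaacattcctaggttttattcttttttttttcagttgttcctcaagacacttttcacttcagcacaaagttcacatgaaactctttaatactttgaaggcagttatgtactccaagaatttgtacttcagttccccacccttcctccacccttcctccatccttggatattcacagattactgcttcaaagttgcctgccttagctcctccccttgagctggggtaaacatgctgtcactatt
Slco1c1 (chr6:141524104-141524353, plus strand): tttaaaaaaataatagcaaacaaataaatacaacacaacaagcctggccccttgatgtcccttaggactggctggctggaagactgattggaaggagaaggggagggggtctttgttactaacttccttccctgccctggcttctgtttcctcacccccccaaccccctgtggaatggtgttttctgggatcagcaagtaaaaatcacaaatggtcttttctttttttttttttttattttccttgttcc
Slc2a1 (chr4:119108495-119108744, plus strand): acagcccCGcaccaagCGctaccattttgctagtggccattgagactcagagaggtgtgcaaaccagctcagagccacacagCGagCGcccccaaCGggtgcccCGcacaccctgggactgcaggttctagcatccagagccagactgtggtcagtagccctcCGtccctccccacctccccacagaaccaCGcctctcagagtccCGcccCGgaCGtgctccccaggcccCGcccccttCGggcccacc
Slc3a2 (chr19:8713898-8714147, minus strand): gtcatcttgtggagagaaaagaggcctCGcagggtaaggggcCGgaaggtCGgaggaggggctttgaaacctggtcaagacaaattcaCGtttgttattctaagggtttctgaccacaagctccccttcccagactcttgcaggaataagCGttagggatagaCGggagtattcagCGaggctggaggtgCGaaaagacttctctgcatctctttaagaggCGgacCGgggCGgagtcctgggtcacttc

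The windows of Slco1a4, Abcb1a and Slco1c1 held 0 CG each, with 39.2%, 40.4% and 42.8% of bases G or C. Those of Slc2a1 and Slc3a2 held 13 and 11 CG, with 66.4% and 53.6% G or C. Among 32851 promoter windows of the same length the median was 6 CG and 52.4% G or C. Of the others, Mfsd2a had 17 CG, the 3 windows of Abcg2 had 3, 10 and 23, and the 3 of Slco2b1 had 3, 2 and 4. The motif CTTTGAA or CTTTGAT, bound by the TCF and LEF factors of Wnt signalling, was searched on both strands. It occurred in the windows of Abcb1a and Slc3a2 and in none of the other 6 members, against 7.48% of all windows. TGATGNAA, a motif of the amino acid response, occurred in no member's window and in 3.45% of all. These letters are a description of the windows and show no binding.

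Measured per kilobase of merged exons (GENCODE M21 lengths), the members fell into 3 ranges in endothelial cells. Slc3a2 stood at 259.5 CPM per kilobase, Slc6a6 at 102, Slco2b1 at 70.5, Abcg2 at 56.4 and Slc2a1 at 52.0. Slco1a4 followed at 10.2 and Abcb1a at 7.34. Mfsd2a at 1.12 (0.844 to 1.47), Slco1c1 at 0.993 (0.816 to 1.20) and Slc7a5 at 0.707 (0.534 to 0.918) came last, and the interval of each overlapped that of the next. In microglia the order was Slc3a2 at 223, Slco2b1 at 107, Slc6a6 at 56.3, Slc2a1 at 23.0, Slc7a5 at 2.67, Abcg2 at 2.11, Slco1a4 at 1.04, Slco1c1 at 1.01, Mfsd2a at 0.739 and Abcb1a at 0.250 CPM per kilobase. There the intervals of Slco1a4 and Slco1c1 overlapped.

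How a level was spread over cells differed between members. At 10 or more reads, Slc3a2 was carried by 77 of 111 endothelial cells, Abcg2 by 57, Slco2b1 and Slc6a6 by 53 each, Slc2a1 by 30, Abcb1a by 15, Slco1a4 by 12, Slc7a5 by 1, and Slco1c1 and Mfsd2a by 0, which allows up to 3.27% of cells by the exact binomial interval. In microglia the counts were 171 of 280 cells for Slc3a2, 10 for Abcg2, 142 for Slco2b1, 117 for Slc6a6, 21 for Slc2a1, 7 for Slc7a5 and 0 for Abcb1a, Slco1a4, Slco1c1 and Mfsd2a, which allows up to 1.31%. The cells past 10 reads held 90.2% to 99.6% of the endothelial reads of Slc2a1, Slc3a2, Slc6a6, Slco1a4, Slco2b1, Abcb1a and Abcg2. At least 50% of a gene's endothelial reads lay in 20 cells for Slc3a2, 13 for Slc6a6, 12 for Abcg2, 10 for Slco2b1, 6 for Slc2a1, and 5 each for Slco1a4 and Abcb1a. An endothelial cell carried a median of 3 members at 10 reads and at most 6, and a microglia cell a median of 1 and at most 5.

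**Figure D1:**
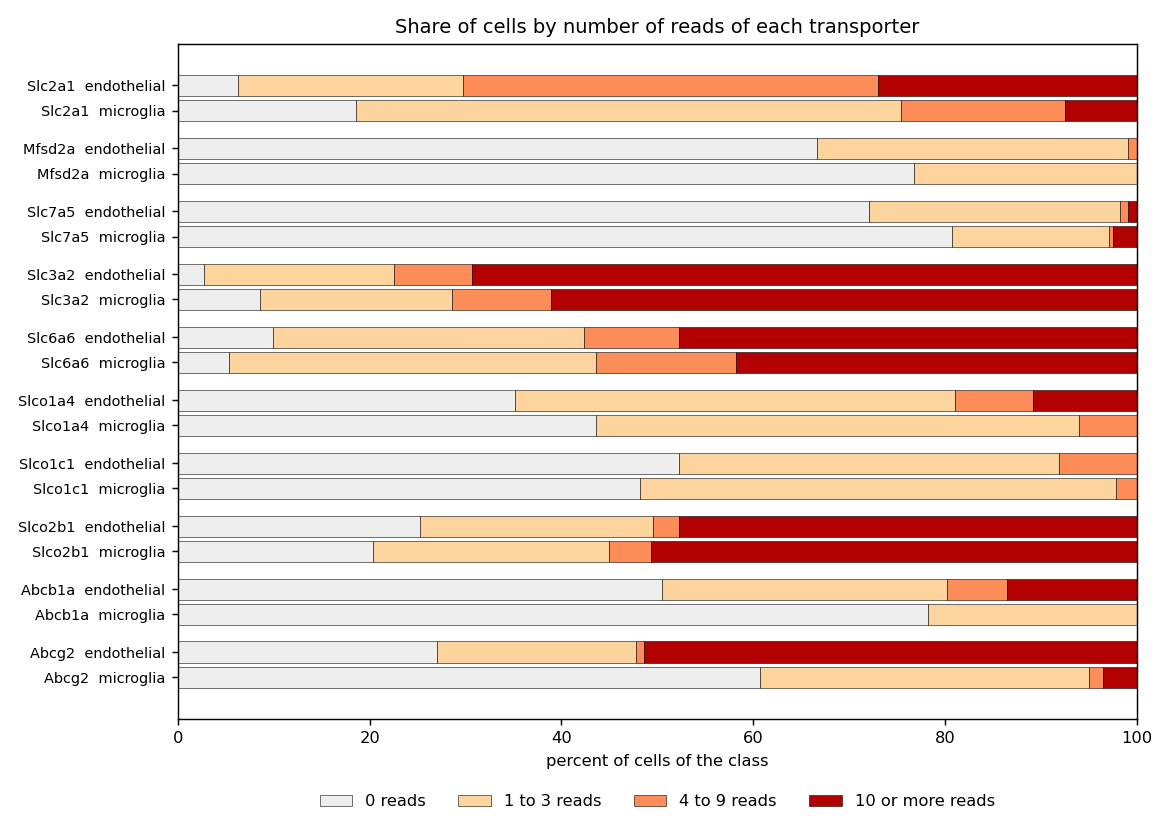
Percent of the 111 endothelial cells and the 280 microglia with 0, 1 to 3, 4 to 9 and 10 or more reads of each transporter. Slco1c1 was read in 47.7% of endothelial cells and 51.8% of microglia and never at 10 or more reads, whereas Abcg2 reached 10 reads in 51.4% of endothelial cells and 3.57% of microglia.

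Slc2a1, the main glucose carrier of the barrier, was read in 104 of 111 endothelial cells (93.7%, 87.4 to 97.4) and in 228 of 280 microglia (81.4%, 76.4 to 85.8), or in 83.8% and 60.2% once every cell was thinned to 71000 reads. Per cell it ran from 0 over a median of 34.4 to 2215 CPM in endothelial cells, and from 0 over 13.2 to 2068 CPM in microglia. The middle of the endothelial range was above that of microglia, and the highest cells of both classes lay close together. Pooled, it stood at 182 CPM in endothelial cells and 80.7 CPM in microglia, a 2.26-fold ratio (2.16 to 2.37). Within plate A the 7 endothelial cells lay between 22.2 and 78.6 CPM, and the pooled ratio was 0.703 (0.489 to 0.980), at 37.4 CPM in endothelial cells and 53.3 CPM in microglia. Within plate B it was 5.13 (4.78 to 5.51), at 491 CPM in endothelial cells and 95.6 CPM in microglia, and 1 endothelial cell held 53.1% of the endothelial reads there. The endothelial plates thus differed 13.1-fold from lowest to highest, while their per-cell medians lay between 17.3 and 57.6 CPM.

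The other glucose carriers differed more between the classes. Of 11 family members, 10 were measured, meaning 1 CPM or more in either class. Of these, 4 stood 4-fold or more above microglia in endothelial cells and 3 the other way round, against 11.7% and 19.9% of all genes measured. Slc2a10 was at 21.8 CPM in endothelial cells and 0.147 CPM in microglia, the insulin-regulated carrier Slc2a4 at 8.05 and 0.0631, and Slc2a12 and Slc2a13 at 7.12 and 3.70 CPM against 0 microglia reads. The fructose carrier Slc2a5 was at 5.06 CPM in endothelial cells and 213 CPM in microglia, Slc2a6 at 0.0468 and 51.5, and the neuronal type carrier Slc2a3 had 0 endothelial reads against 29.0 CPM in microglia. The intracellular Slc2a8 was at 61.0 and 88.4 CPM and Slc2a9 at 12.2 and 12.8. Slc2a2 had 0 reads in both. These values are pooled over plates. Family counts within plate A were 1 higher in endothelial cells and 5 in microglia of 8 measured, beside 10.9% and 46.5% of all genes. Those on plate B were 2 and 4 of 7, beside 11.5% and 48.4%. On each of these plates 7 of the 11 members had 0 endothelial reads.

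Mfsd2a, the lysophosphatidylcholine carrier, was read in 37 of 111 endothelial cells (33.3%) and 65 of 280 microglia (23.2%), or 16.2% and 12.2% when thinned. Its levels per cell ran from 0 over 0 to 28.6 CPM in endothelial cells and from 0 over 0 to 32.2 CPM in microglia, so that the ranges overlapped in full. No cell had more than 4 reads of it. Its pooled level was 2.53 (1.90 to 3.30) CPM in endothelial cells and 1.66 (1.32 to 2.07) CPM in microglia, a ratio of 1.52 (1.06 to 2.18). The endothelial plates lay between 1.02 CPM on plate D and 6.60 CPM on plate B. The ratio was 3.03 (0.762 to 8.87) within plate A and 3.62 (1.86 to 6.59) within plate B, on 4 and 14 endothelial reads. Pooled, the 11 measured genes of lipid, choline and heme transport held 0 that stood 4-fold above microglia and 2 the other way round. The shares of all genes measured were 11.7% and 19.9%. The choline carrier Slc44a2 was at 528 CPM in endothelial cells and 151 CPM in microglia. List counts within plate A were 2 and 5 of 11, beside 10.9% and 46.5% of all genes. Those on plate B were 1 and 6 of 12, beside 11.5% and 48.4%.

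The pair that forms the large neutral amino acid exchanger was split. Slc3a2, the heavy chain that brings several light chains to the membrane, ran from 0 over a median of 773 to 5867 CPM in endothelial cells and from 0 over 454 to 5191 CPM in microglia. The ranges overlapped throughout. Pooled it was at 916 CPM in endothelial cells and 788 CPM in microglia (log2 ratio 0.22, ratio between 1.14 and 1.18), at 865 and 762 CPM within plate A, and at 572 and 803 CPM within plate B, where the direction was the opposite. Slc7a5, the light chain of that exchanger, had 56 reads over all endothelial cells. It stood at 2.62 (1.98 to 3.40) CPM there and at 9.91 (9.04 to 10.9) CPM in microglia, a ratio of 0.264 (0.197 to 0.349) that does not pass 4-fold on the log2(CPM + 1) scale. It was read in 31 of 111 endothelial cells (27.9%) and 54 of 280 microglia (19.3%), or 11.7% and 10.6% when thinned.

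The microglia reads of Slc7a5 came from few cells. At 10 or more reads it was carried by 1 endothelial cell, at 70.5 CPM, and by 7 microglia, at 42.3, 103, 159, 272, 337, 375 and 576 CPM. All 7 of these microglia also carried Slc3a2 at 10 or more reads, as 171 of 280 microglia did, whereas the 1 endothelial cell did not. They held 86.6% of the microglia reads of Slc7a5. No endothelial cell therefore had both chains of the exchanger at 10 reads, although 77 had the heavy chain.

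The other light chains that pair with Slc3a2 were also sparse in endothelial cells. Slc7a7, a basic amino acid exchanger, was at 53.0 CPM in endothelial cells and 132 CPM in microglia, and Slc7a6, of the same type, at 12.8 and 12.0 CPM. Slc7a8, a neutral amino acid exchanger, had 7 reads or 0.328 (0.132 to 0.675) CPM in endothelial cells and 295 CPM in microglia. The cystine exchanger Slc7a11 was at 0.281 and 4.61 CPM, and Slc7a10 had 1 endothelial read and 0 microglia reads. At 10 or more reads, 10 of the 77 endothelial cells with Slc3a2 (13.0%) carried any of these 6 light chains, against 92 of 171 microglia (53.8%). Of 15 measured other amino acid carriers, 3 stood 4-fold or more above microglia in endothelial cells and 8 the other way round, beside the same 11.7% and 19.9% of all genes. The glutamine carrier Slc38a2 was at 131 and 165 CPM, Slc43a2, a carrier of large neutral amino acids, at 1.78 CPM in endothelial cells and 192 CPM in microglia, and Slc38a1 at 3.46 and 130 CPM. Counts of these carriers within plate A were 0 and 6 of 15 measured, beside 10.9% and 46.5% of all genes. Those on plate B were 1 and 9 of 13, beside 11.5% and 48.4%. Of 10 genes of the amino acid response, 3 were, pooled, 4-fold or more above microglia in endothelial cells and 5 the other way round. These counts stand beside the same 11.7% and 19.9% of all genes. The transcription factor Atf4 was at 369 CPM in endothelial cells and 445 CPM in microglia.

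Slc6a6, which carries taurine, was read in 100 of 111 endothelial cells (90.1%) and 265 of 280 microglia (94.6%). Per cell it ran from 0 over a median of 49.9 to 6100 CPM in endothelial cells and from 0 over 32.6 to 4940 CPM in microglia. Cells fell into a low and a high range in both classes, with 53 endothelial cells and 117 microglia at 10 or more reads. Pooled, the level was 866 CPM in endothelial cells and 476 CPM in microglia (1.82-fold, 1.78 to 1.85). The plates differed: microglia stood at 476 CPM on both plates A and B, whereas endothelial cells stood at 2588 CPM on plate A, 1697 on plate B, 820 on plate C and 525 on plate D. Within plate A the ratio was 5.44 (5.20 to 5.69) and within plate B 3.57 (3.44 to 3.70). On plate A the 7 endothelial cells lay at 50.0, 66.0, 829, 2460, 3991, 4142 and 5676 CPM. Of the 8 carriers of the Slc6 list only Slc6a6 and the GABA carrier Slc6a13, at 0.0468 CPM in endothelial cells and 5.79 CPM in microglia, were measured.

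Among the organic anion carriers, Slco1a4 stood above microglia in endothelial cells, Slco1c1 was level between the classes when pooled but higher in endothelial cells within plates A and B, and Slco2b1 was abundant in both. Slco1a4, a carrier of bile acids and steroid conjugates, ran from 0 over a median of 5.75 to 1189 CPM in endothelial cells and from 0 over 4.61 to 64.3 CPM in microglia. The medians lay close together, and 12 endothelial cells reached 72.8 CPM or more, above every microglia cell. Pooled it was at 65.5 (62.1 to 69.0) CPM in endothelial cells and 6.67 (5.96 to 7.45) CPM in microglia, a 9.82-fold ratio (8.68 to 11.1). It was read in 72 of 111 endothelial cells (64.9%, 55.2 to 73.7) and 158 of 280 microglia (56.4%, 50.4 to 62.3), or 45.9% and 32.5% when thinned. The 12 cells with 10 or more reads sat on plates B, C and D (2, 4 and 6 cells) and held 1269 of 1399 endothelial reads. On plate A, with no such cell, the ratio was 2.47 (1.33 to 4.25), and on plate B it was 18.2 (15.1 to 21.9), with 83.0% of the endothelial reads in 1 cell.

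Outside those 12 cells the pooled level of Slco1a4 was close in both classes, but not within plates A and B. The other 99 endothelial cells had 130 reads of it, or 7.09 (5.92 to 8.42) CPM, against 6.67 CPM in the 280 microglia, none of which reached 10 reads. In the same cells Slco1c1, the thyroxine carrier, had 95 reads in endothelial cells and 249 reads in microglia. The ratio of Slco1a4 to Slco1c1 reads was 1.37 (1.04 to 1.80) in those endothelial cells and 1.27 (1.07 to 1.51) in microglia. The cut at 10 Slco1a4 reads removed endothelial cells only, so the closeness of these pooled values can be partly set by it. By plate the ratio was 0.75, 1.29, 1.68 and 1.57 in those endothelial cells on plates A to D. In microglia it was 1.04 on plate A and 1.44 on plate B. Over whole classes Slco1c1 was at 5.15 (4.23 to 6.21) CPM in endothelial cells and 5.24 (4.61 to 5.93) CPM in microglia, a ratio of 0.983 (0.778 to 1.23). It was read in 53 of 111 endothelial cells (47.7%) and 145 of 280 microglia (51.8%), or 26.1% and 32.5% when thinned, and no cell had more than 7 reads. The equal pooled shares, at median depths of 174345 reads in endothelial cells and 146506 reads in microglia, did not hold within the plates that held both classes. On plate A Slco1c1 was read in 85.7% of 7 endothelial cells and 47.4% of 133 microglia, or 42.9% and 33.0% when thinned. On plate B it was read in 90.0% of 10 endothelial cells and 55.8% of 147 microglia, or 70.0% and 32.1% when thinned. The source of these low reads was not tested.

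The low reads differed by plate in endothelial cells. Slco1c1 stood at 20.8, 14.6, 4.42 and 1.94 CPM in endothelial cells on plates A, B, C and D, and at 6.08 and 4.78 CPM in microglia on plates A and B. Within plates A and B it was therefore higher in endothelial cells, 3.42-fold (2.00 to 5.56) and 3.06-fold (2.00 to 4.53), while pooled it was not. These within-plate values rest on 20 and 31 endothelial reads. Slco1a4 in endothelial cells with under 10 reads of it was likewise higher on plates A and B, at 15.6 and 17.7 CPM, than on plates C and D, at 7.38 and 3.05 CPM. On plate A these 15.6 (8.73 to 25.7) CPM in endothelial cells stood against 6.32 (5.18 to 7.65) CPM in microglia, and on plate B 17.7 (12.0 to 25.1) CPM in endothelial cells against 6.86 (5.97 to 7.86) CPM in microglia. The median per-cell sum of the 10 markers of choroid plexus epithelium was also highest in endothelial cells of these plates. It was 407 CPM on plate A, 705 on plate B, 8.70 on plate C and 153 on plate D. However, 8 of the 10 markers had 0 reads in endothelial cells of plate A and 9 in those of plate B. Their pooled sums were 461, 785, 403 and 383 CPM on plates A to D. The part of these markers in the low reads was not tested.

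Slco2b1, a carrier of steroid sulfates, was read in 83 of 111 endothelial cells (74.8%) and 223 of 280 microglia (79.6%). Per cell it ran from 0 over 22.1 to 2716 CPM in endothelial cells and from 0 over 101 to 7778 CPM in microglia, with overlap throughout. Pooled it stood at 420.2 CPM in endothelial cells and 639.7 CPM in microglia, a ratio of 0.657 (0.641 to 0.673). Within plate A the ratio was 0.348 (0.303 to 0.397), at 229.7 and 660.3 CPM, and within plate B it was 1.25 (1.18 to 1.31), at 783 and 628 CPM. Of 13 family members, 6 were measured in the pooled classes. Among these, 3, with Slco1a4 as 1 of them, stood 4-fold or more above microglia in endothelial cells and 1 the other way round. The shares of all genes measured were 11.7% and 19.9%. The prostaglandin carrier Slco2a1 was at 172 CPM in endothelial cells and 0.0842 CPM in microglia, read in 33.3% and 1.07% of cells, and Slco3a1 was at 40.8 and 2.00 CPM. Slco4a1 had 0 reads in endothelial cells and stood at 22.3 CPM in microglia. Slco1a1, Slco1a5, Slco1a6, Slco4c1, Slco5a1 and Slco6b1 had 0 reads in both classes and Slco1b2 had 1 endothelial read. Family counts within plate A were 0 higher in endothelial cells and 2 in microglia of 5 measured, beside 10.9% and 46.5% of all genes. Those on plate B were 2 and 1 of 6, beside 11.5% and 48.4%. Slco1a4 shares 1.31%, 1.56% and 0.749% of its 50-base stretches with Slco1a1, Slco1a5 and Slco1a6, so that reads split between them can be few.

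Both efflux pumps stood far above microglia in endothelial cells. Abcg2, which exports drugs and urate, ran from 0 over a median of 76.6 to 2135 CPM in endothelial cells and from 0 over 0 to 871 CPM in microglia. Pooled it was at 459 (450.4 to 469) CPM in endothelial cells and 17.2 (16.1 to 18.4) CPM in microglia, a 26.7-fold ratio (24.8 to 28.7), and it was read in 81 of 111 endothelial cells (73.0%) and 110 of 280 microglia (39.3%). At 10 or more reads these were 57 (51.4%, 41.7 to 61.0) and 10 (3.57%, 1.73 to 6.47). The ratio was 23.6 (21.1 to 26.5) within plate A and 18.4 (15.7 to 21.5) within plate B. Abcb1a, the P-glycoprotein of rodent barrier endothelium, ran from 0 over 0 to 718 CPM in endothelial cells and from 0 over 0 to 42.8 CPM in microglia. Most cells of both classes lay at 0 or in the low band, and 15 endothelial cells with 10 or more reads, between 48.1 and 718 CPM, lay above every microglia cell. They held 775 of 859 endothelial reads.

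Pooled, Abcb1a was at 40.2 (37.6 to 43.0) CPM in endothelial cells and 1.37 (1.06 to 1.74) CPM in microglia, a 29.4-fold ratio (22.8 to 38.4). It was read in 55 of 111 endothelial cells (49.5%, 39.9 to 59.2) and 61 of 280 microglia (21.8%, 17.1 to 27.1), or 33.3% and 11.4% when thinned. The ratios within plates A and B, 84.0 (55.6 to 131) and 60.3 (41.9 to 88.9), each rest largely on 1 endothelial cell, with 98.5% and 84.4% of the endothelial reads of its plate. On plates C and D, which held 50 and 44 endothelial cells, the level was 29.9 and 32.6 CPM. Abcb1a shares 16.3% of its 50-base stretches with its paralog Abcb1b, so reads between them are uncertain. Abcb1b was at 1.64 CPM in endothelial cells and 25.1 CPM in microglia, the opposite direction.

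Of 9 drug efflux pumps 7 were measured. Pooled, 3 stood 4-fold or more above microglia in endothelial cells and 2 the other way round, beside 11.7% and 19.9% of all genes. Besides Abcb1a and Abcg2, these 3 include Abcc4, a nucleotide and prostaglandin exporter, at 132 CPM in endothelial cells and 14.8 CPM in microglia. The pumps that were higher in microglia were Abcb1b and Abcc3, an exporter of conjugates, the second with 0 endothelial reads against 148 CPM in microglia. Abcc1 was at 43.8 CPM in endothelial cells and 51.0 CPM in microglia, Abcc5 at 46.3 and 76.7, Abcc6 at 0.468 and 0.232, and Abcc2 had 0 reads in both. Pump counts within plate A were 3 higher in endothelial cells and 3 in microglia of 8 measured, beside 10.9% and 46.5% of all genes. Those on plate B were 3 and 3 of 7, beside 11.5% and 48.4%.

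**Figure D2:**
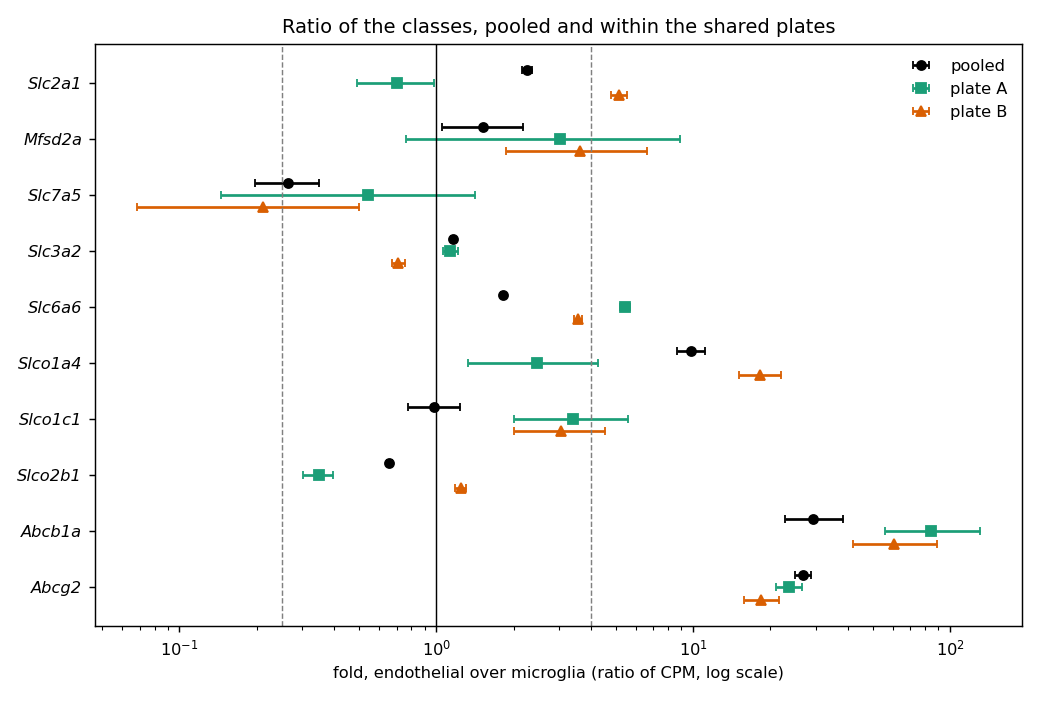
Ratio of pooled CPM, endothelial over microglia (log scale), of each transporter for all cells and within plates A and B; bars are exact 95% intervals for counting error, and dashed lines mark 4-fold. Abcb1a and Abcg2 lie right of 4-fold in all 3, Slco1a4 pooled and within plate B, Slc6a6 within plate A and Slc2a1 within plate B.

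By the size rule of 4-fold on the log2(CPM + 1) scale, 3 of the 10 members were higher in endothelial cells, Slco1a4, Abcb1a and Abcg2, against 11.7% of the 14989 genes measured. None was higher in microglia, against 19.9% of genes. The members' median log2 ratio was 0.63, and that of all genes -0.36. Within plate A, Slc6a6, Abcb1a and Abcg2 passed the rule (3 of 10, against 10.9% of genes), and within plate B Slc2a1, Slco1a4, Abcb1a and Abcg2 did (4 of 10, against 11.5%). The shares of genes higher in microglia were 46.5% and 48.4% within these plates, where only 7 and 10 endothelial cells were pooled. Abcb1a and Abcg2 thus passed pooled and within both plates. Slc7a5 was 0.212 (0.0684 to 0.499) in ratio within plate B and did not pass on that scale. The ratio of Abcg2 without plate A was 5.42 on the log2 scale and that without plate B 3.92, against 4.66 with all plates. Over the 9 lists of transporters together, which also hold members such as Slco1a4, Abcb1a and Abcg2, 80 of 101 genes were measured. Of these, 14 stood 4-fold or more above microglia in endothelial cells and 27 the other way round.

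Other gene groups are given beside the carriers. Not all of their genes are particular to the barrier, and Plvap is lacking from mature barrier endothelium. Of 10 tight junction and vesicle genes 9 stood 4-fold or more above microglia in endothelial cells, F11r being between, at 886 CPM in endothelial cells and 419 CPM in microglia. Besides Plvap these include the junctional molecule Esam, at 2189 and 4.95 CPM, and Cavin2 and Cav1, coat proteins of caveolae, at 1377 and 1.28 CPM and at 1165 and 2.95 CPM. Of 14 measured Wnt and barrier transcription factors 10 stood 4-fold or more above microglia, with Sox18 at 1679 CPM in endothelial cells and 2.88 CPM in microglia and the Wnt receptor Fzd4 at 362 and 1.64 CPM. Of 7 measured receptors of transcytosis, 2 did, the leptin receptor Lepr at 26.6 and 0.147 CPM and the insulin receptor Insr at 479 and 36.0 CPM, while Lrp1 was higher in microglia, at 13.3 CPM in endothelial cells and 189 CPM in microglia. The counts among other lists were 0 and 4 of 15 nucleoside, cation, vitamin and ion carriers, 1 and 0 of 10 hypoxia targets, and 0 and 1 of 6 xenobiotic and hormone receptors, higher in endothelial cells and in microglia in this order, beside 11.7% and 19.9% of all genes.

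Within single endothelial cells the members mixed in many ways. All 12 cells with 10 or more reads of Slco1a4 and all 15 with Abcb1a also carried Plvap and Cldn5, the main claudin of the barrier, at 10 or more reads, as 111 and 102 of all 111 endothelial cells did. Of the 12 cells with Slco1a4, 2 also carried Abcb1a at that level (16.7%, against 13.1% of the other endothelial cells). Abcg2 was carried by 9 of the 12 (75.0%, against 48.5% of the other endothelial cells). Slc3a2 was carried by 7, Slc2a1 by 5 and Slco2b1 by 5 of the 12, as by 77, 30 and 53 of all 111. Of the 15 with Abcb1a, 14 carried Slc3a2, as 77 of all 111 did, and 10 (66.7%) carried Abcg2, against 49.0% of the other endothelial cells. The cell with the highest Slco1a4 level, on plate B, had 1189 CPM of it, 713 CPM of Abcg2, 97.3 CPM of Abcb1a, 5009 CPM of Slc6a6, 1794 CPM of Slc3a2 and 1178 CPM of Cldn5, against a median of 208 CPM of Cldn5 over endothelial cells. Its Plvap level was 4112 CPM and its Mfsd2a level 21.6 CPM. It carried 91.9 CPM of Slc2a1 and 21.6 CPM of Slco1c1. The cell with the next level, on plate D, had 582 CPM of Slco1a4, 674 CPM of Abcg2, 3.66 CPM of Abcb1a, 7.32 CPM of Slc6a6 and 7647 CPM of Plvap.

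The microglia class was split into 4 clusters on its 2000 most variable genes, and cluster levels are a description. Cluster 3, with 53 cells, was microglia-like, with Sall1 at 481 CPM and each of the 14 microglia markers read in 50% of its cells or more. Clusters 1, 2 and 4, with 128, 66 and 33 cells, were left unnamed. In each of them 13 of the 14 microglia markers and 8, 7 and 7 of the 10 border-associated macrophage markers were read in 50% of cells or more. The border markers summed to 13185, 5920.0, 472 and 829.8 CPM in clusters 1 to 4. The microglia markers summed to 26884, 30436, 43231 and 5688 CPM, so that cluster 4 was the lowest in them. In cluster 3 Slco2b1 reached 1099.7 (1079.9 to 1119.7) CPM; it was at 664 and 610 CPM in clusters 1 and 2 and at 4.24 (2.94 to 5.93) CPM in cluster 4. The level in cluster 4 was 2.56 CPM on plate A and 4.65 CPM on plate B. Slc2a1 was at 14.7, 78.2, 110.1 and 198 CPM in clusters 1 to 4, with 0, 6, 7 and 8 cells at 10 or more reads. Cells of cluster 1 reached at most 116 CPM of it. Slc7a5 was at 1.55, 1.79, 31.8 and 10.4 CPM, and its 7 high cells sat in cluster 3 (4 cells) and cluster 4 (3 cells).

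**Figure D3:**
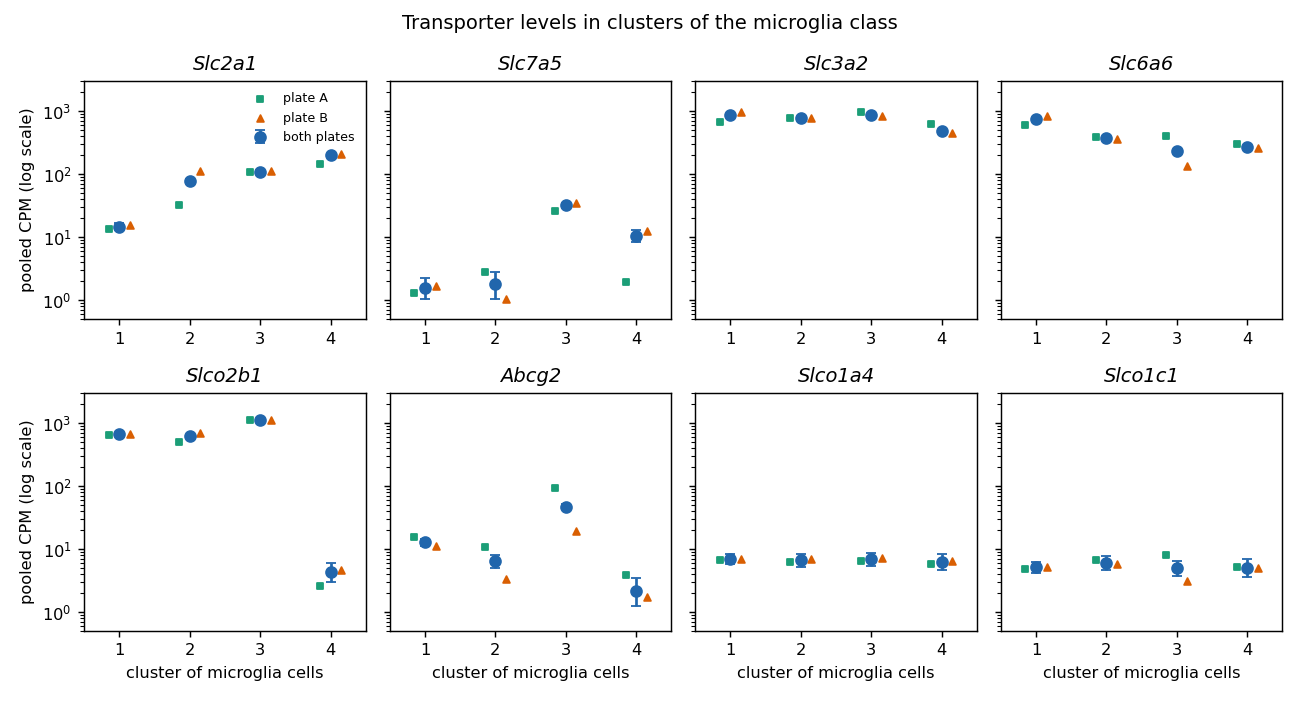
Pooled CPM (log scale) of 8 transporters in the 4 clusters of the microglia class, for both plates together with exact 95% intervals and for plates A and B apart. Slco2b1 is lowest in cluster 4 and Slc2a1 in cluster 1, whereas Slco1a4 and Slco1c1 stay between 4.94 and 6.85 CPM in all 4 with both plates together.

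Slco1a4 lay at 6.24 to 6.85 CPM and Slco1c1 at 4.94 to 6.06 CPM over the 4 clusters, with overlapping intervals. With the plates apart, Slco1c1 in cluster 3 was at 8.05 CPM on plate A and 3.11 CPM on plate B. Abcg2 stood at 12.7, 6.35, 46.5 and 2.12 CPM in clusters 1 to 4, on plate A at 92.6 CPM in cluster 3 and on plate B at 19.4 CPM. Slc6a6 was at 757, 375, 233 and 271 CPM and Slc3a2 at 867, 779, 882 and 489.5 CPM. Slc7a8, a light chain, was at 305, 208, 578 and 0.998 CPM, and Slc2a5 at 1.76, 1.39, 938 and 1.25 CPM. Set against cluster 3 alone, the log2 ratio of Slc7a5, endothelial over microglia, was -3.18 and passed 4-fold, against -1.59 for the whole class, and that of Abcg2 was 3.28, against 4.66. This Slc7a5 ratio rests on few cells: 4 of the 53 in cluster 3 held 137, 103, 79 and 13 of its 341 reads.

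The genes whose levels ran most alike to each member were ranked by Spearman's rho across cells within each plate with at least 20 cells of a class, averaged over the plates. The cells share depth and plate, so rho is a description. Across the 50 and 44 endothelial cells of plates C and D, among 1254 genes, Slco2b1 was closest to Kdr, Bcam and Ifngr1 (0.36, 0.36 and 0.36) and Abcg2 to Mtpn, Rheb and Tspan15 (0.39, 0.34 and 0.34). Slc6a6 was closest to Sgk1, Bri3 and Hp1bp3 (0.36, 0.34 and 0.33) and Slc3a2 to Sdhc, Dock6 and Krtcap2 (0.36, 0.34 and 0.31). Slco1a4 was closest to Cd34, Stx12 and Dnaja1 (0.33, 0.32 and 0.30) and Slc2a1 to Zfp937, Mfsd5 and Ndufc2 (0.29, 0.26 and 0.26). In the 133 and 147 microglia of plates A and B, among 1119 genes, Slco2b1 was closest to Csf1r, Cd81 and P2ry12 (0.40, 0.35 and 0.33) and Slc6a6 to Stk17b, Cd163 and Mpp1 (0.23, 0.23 and 0.22). Slc2a1 was closest to Itm2a, Cldn5 and Crip2 (0.32, 0.25 and 0.20), Slco1a4 to Itm2a, Ly6c1 and Cldn5 (0.30, 0.29 and 0.23) and Slco1c1 to Itm2a, Rgs4 and Cldn5 (0.22, 0.21 and 0.21). The plates differed, with rho of Slco1a4 and Cldn5 at 0.04 on plate A and 0.42 on plate B, and that of Slco1c1 and Cldn5 at 0.11 and 0.30. Itm2a, Cldn5 and Ly6c1 are known markers of brain capillary endothelium.

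These endothelial genes were themselves low when pooled over microglia and read in most of them, with higher levels in some cells. At 10 or more reads, 16 of 280 microglia carried Itm2a, 26 carried Cldn5 and 0 carried Ly6c1. The 16 cells held 22.8% of the microglia reads of Itm2a. The 26 cells, all on plate B, held 31.7% of those of Cldn5. Crip2 was at 1810 CPM in endothelial cells and 12.3 CPM in microglia, where 2 cells held 46.7% of its reads. Itm2a stood at 866 CPM in endothelial cells and 25.0 CPM in microglia, read in 96.4% and 90.7% of cells, Cldn5 at 263 and 24.5 CPM, read in 100% and 92.1%, and Ly6c1 at 1386 and 10.2 CPM, read in 100% and 77.9%. Plvap stood at 7837 CPM in endothelial cells and 1.52 CPM in microglia, read in 100% and 16.8%. Cldn5 had 5609 reads against 167410 of Plvap in endothelial cells, and 1165 reads against 72 of Plvap in microglia. Spearman's rho with Plvap across microglia was -0.18 on plate A and -0.06 on plate B for Slco1a4, and -0.08 and -0.09 for Slco1c1. It was -0.19 and 0.04 for Slc2a1, 0.13 and 0.03 for Mfsd2a, and -0.03 and 0.22 for Abcb1a. The part of RNA from endothelial cells in the low reads of microglia was not tested.

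Markers of other cell types stood beside these values as follows, and their part in them was not tested. In endothelial cells the 14 microglia markers summed to 159 CPM, 12 mural markers to 264 CPM (26.8 CPM in microglia), and 10 astrocyte markers to 450.4 CPM (125 CPM in microglia). The 10 markers of choroid plexus epithelium summed to 435 CPM in endothelial cells and 59.4 CPM in microglia, with a median per-cell sum of 15.3 CPM in endothelial cells and 0 CPM in microglia. In microglia the 12 endothelial markers summed to 297 CPM with a median of 94.6 CPM per cell. With the 10 endothelial cells and 56 microglia that held 500 CPM or more of the other class's markers left out, a limit chosen after seeing the data, the log2 ratios of Slco1a4, Abcb1a and Abcg2 were 3.32, 4.26 and 4.54, and those of Slc2a1 and Slco1c1 were 1.55 and 0.03.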

How the data were processed

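Per the labels, single cells were sequenced with SMART-seq2. The table the authors deposited holds raw read counts for each gene and cell. The submitters' processing notes name Subread 1.4.6-p5, featureCounts, SAMtools 1.16.1 and build GRCm39; aligner, annotation, strand setting and treatment of multiply mapped reads were not given in the sources used here. No cell or column was left out and no doublet caller was run. Counts were summed per class and plate and scaled to CPM; intervals are exact Poisson, conditional binomial (ratios) and Clopper-Pearson (shares), at 95%. For log2 ratios 1 CPM was added to both levels, so low genes have understated ratios; a gene counts as measured from 1 CPM in at least 1 class. No animal is named, so no test or p-value was computed. Where 1 class had 0 reads no ratio is given. Shares were also computed with cells thinned to 71000 reads, which left out 34 microglia and 0 endothelial cells. Microglia were clustered by Leiden (scanpy 1.11.5, resolution 0.5) on 20 components of 2000 variable genes, with 15 neighbours per cell. Exon lengths are GENCODE M21 and promoters RefSeq GRCm38.p6, both older than the authors' build, so lengths are approximate. The members, gene lists and size rule were chosen with earlier results of these data known. The text names all 10 members, all members of the light chain, glucose, organic anion and efflux lists, up to 4 most abundant members and the most extreme member of other lists, and the 3 closest genes by rho; F11r was named after its values were seen. Results on a further carrier and on the genes closest to Slc3a2 in microglia are not reported here. Ratios and intervals were checked on counts simulated for pooled classes with counting error only. The simulation held no spread between cells or plates, so it does not check the intervals against such spread. Software was matplotlib 3.10.9, leidenalg 0.10.2, pandas 2.3.3, scipy 1.17.1, numpy 2.4.6 and Python 3.11.15.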

Additional observations from a re-analysis of the deposited data

How the results depend on the processing

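Over 14 alternatives (other pseudocounts, scalings and thinning, each plate alone or left out, the top cell left out, and 2 chosen after seeing the data), 62 member ratios stayed within their counting interval, 78 moved and 0 of those past 4-fold changed direction. The count of members past 4-fold in endothelial cells was 3 in each except within plate B, where it was 4. Slc7a5 passed 4-fold in microglia without plate C (-2.07) and against cluster 3 alone (-3.18), where 4 of 53 cells carried it at 10 or more reads. Slc2a1 ranged from -0.50 (within plate A) to 2.35 (within plate B) and Slc6a6 from 0.70 to 2.44 (within plate A), each past 4-fold on 1 plate. Below 4-fold, Slc3a2 ranged from -0.49 to 0.58, Slco2b1 from -1.52 to 0.32 and Slco1c1 from -0.47 to 1.62. Among the called ones, Slco1a4 ranged from 1.18 (within plate A, where it was not called) to 4.00, Abcb1a from 2.83 to 5.73 and Abcg2 from 3.28 to 5.42. Members read in at least 50% of endothelial cells numbered 6, against 2 at 10 or more reads. Over the transporter lists, a 2-fold limit gave 23 of 80 measured genes higher in endothelial cells (14 at 4-fold) and 33 higher in microglia. The share of all genes at 2-fold was not computed, so these 2-fold counts have no comparison. At 4-fold, 41 of 80 were higher in microglia within plate A, 41 of 74 within plate B and 27 of 80 pooled. The shares of all genes were 46.5%, 48.4% and 19.9% in this order. Cells with both Slc7a5 and Slc3a2 numbered 31 endothelial and 49 microglia at 1 or more reads, against 0 and 7 at 10. The cause was not tested. No paired analysis was possible because the labels give no replicate numbers and no result comes from a test; the values within plates A and B compare the classes plate by plate. Plates A and B hold 7 and 10 endothelial cells, and values within them can rest on 1 cell.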
